A study of Mus musculus with 6 samples.

Results

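The *Per*, *Cry*, *Arntl*, *Clock*, *Nr1d* and *Dbp* genes of the circadian clock were examined in hearts of wild-type (WT) and *Pkm1* knockout (KO) mouse embryos at E18.5. The 10 genes *Per1*, *Per2*, *Per3*, *Cry1*, *Cry2*, *Arntl*, *Clock*, *Nr1d1*, *Nr1d2* and *Dbp* were chosen by symbol, and 10 of 10 were found among the 13809 genes counted. KO embryos were homozygous for a small CRISPR/Cas9 deletion in the exon of *Pkm* that belongs to the *Pkm1* transcript, which introduces a premature stop codon. The deletion is carried by every cell and not by cardiomyocytes alone, and KO pups die soon after birth. The allele was made in hybrid (BDF1) zygotes, heterozygous parents were intercrossed, and neither genotype received a treatment. Total RNA depleted of ribosomal RNA was sequenced from 3 biological replicates per genotype. The tissue was ventricle by the study's methods and heart by the sample labels.

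The mammalian clock is a transcriptional feedback loop found in nearly every cell type. ARNTL (BMAL1) and CLOCK pair on E-box sequences and activate the *Per* and *Cry* genes, and the PER and CRY proteins enter the nucleus and repress that pair. A second loop runs through the nuclear receptors REV-ERB alpha (*Nr1d1*) and REV-ERB beta (*Nr1d2*), which repress *Arntl*, while ROR receptors activate it from the same DNA element. DBP, a PAR bZIP factor, carries the rhythm to output genes through D-box sequences and is opposed by NFIL3. Some clock genes also answer to signals from outside the loop: *Per1* and *Per2* are induced rapidly by cAMP and calcium through CREB, and by glucocorticoids. Fetal tissues generally show weaker rhythms than adult ones. A sample taken at 1 time point gives the level of these transcripts and not their rhythm, and the hour at which the embryos were collected is not given in the sources used here.

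Library totals were 15597756 to 19875546 counts in WT and 15567624 to 18577404 in KO. Levels are given as CPM, read counts scaled to the TMM-adjusted library size, and a gene was called higher or lower in KO at a Benjamini-Hochberg adjusted p under 0.05 in the quasi-likelihood test of edgeR over 13804 genes. The targeted gene *Pkm* was at 1294, 1296 and 1366 CPM in WT and at 547, 530 and 549 CPM in KO hearts, a log2 fold change of -1.28. The genotypes also differed in sex-linked transcripts. *Xist* was at 4.80 to 5.79 CPM in WT and 2237 to 2332 CPM in KO, and 4 Y-linked genes (*Kdm5d*, *Eif2s3y*, *Uty* and *Ddx3y*) were counted at 0 in all KO libraries. Sex and genotype therefore cannot be told apart for any gene below. Of 8 ventricular and pan-cardiomyocyte markers, 7 were lower and 1 was higher in KO, with a summed level of 127016 to 131223 CPM in WT and 120300 to 121733 CPM in KO, and none was at 0. The 6 atrial markers tested summed to 595 to 601 CPM in WT and 1006 to 1030 CPM in KO, with 3 called higher. Of 6 endothelial markers 3 were lower, of 6 fibroblast markers 2 were lower, of 5 epicardial markers 3 were higher, of 6 immune markers 1 was lower, and of 3 erythroid markers tested 1 was lower and 1 higher. For comparison, 15.7% of all genes tested were called lower and 14.6% higher. In bulk tissue, fewer cells of a type and less RNA per cell cannot be told apart, and the part of cell makeup in the clock results was not tested. Among the WT libraries, WT c stood apart from WT a and WT b, with a chi-square per degree of freedom over genes of 3.75 and 3.23, against 1.56 between WT a and WT b. The KO pairs gave 1.62 (KO a and KO b), 1.84 (KO a and KO c) and 1.88 (KO b and KO c).

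Of the 10 clock genes, 5 were lower in KO hearts, 0 were higher and 5 did not pass the test. Among all genes tested, 15.7% were called lower and 14.6% higher, 30.3% in all. The 3 WT and 3 KO libraries did not overlap for 7 of the 10 genes, with KO the lower in 7, where 21.4% of all genes were separated with KO lower and 21.0% with KO higher, 42.4% in all. The median log2 fold change of the 10 genes was -0.22, and that of all genes tested was 0.0017. The genes called lower were *Per1*, *Cry2*, *Per2*, *Nr1d1* and *Nr1d2*. The change was very uneven among them: *Per1* was at 0.385 of its WT level, *Cry2* at 0.713, and the remaining 3 between 0.850 and 0.858.

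**Figure D1:**
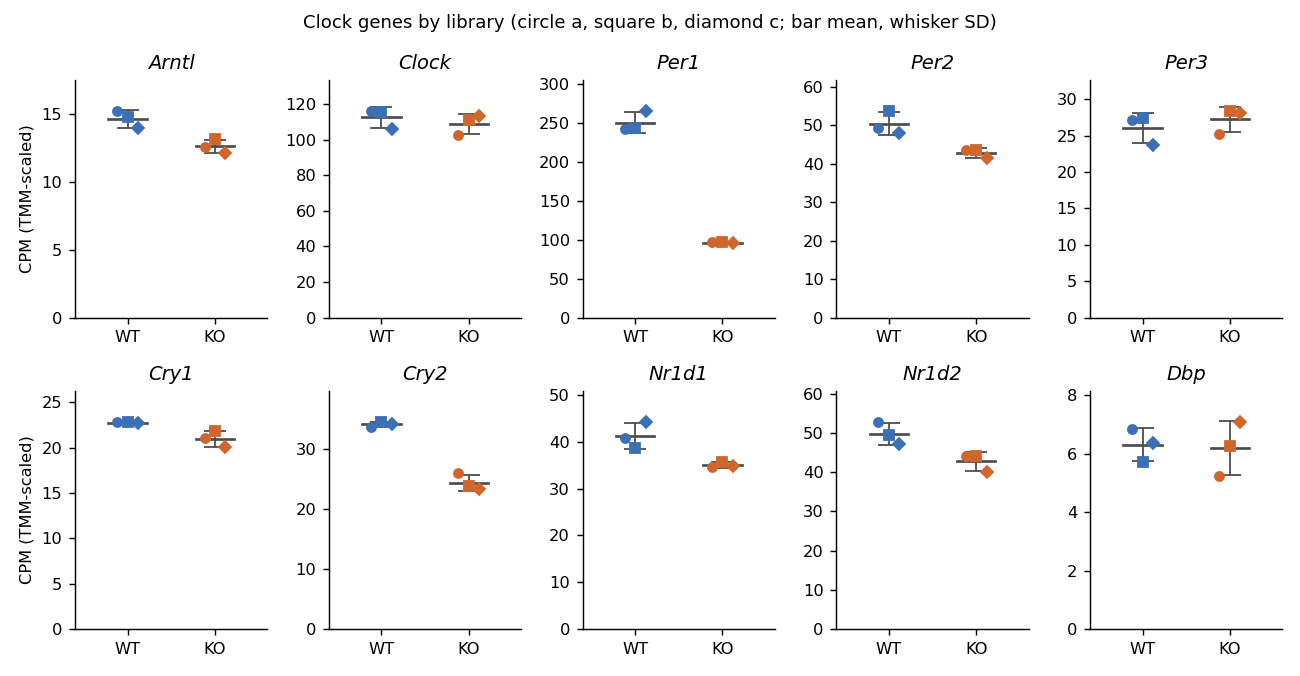
CPM of each of the 10 clock genes in the 3 WT (blue) and 3 KO (orange) libraries, with the axis from 0 in each panel; bars are means and whiskers SD. *Per1* in KO lies near 96.5 CPM against 251 CPM in WT, while the WT and KO points of *Clock*, *Per3* and *Dbp* overlap.

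The activators were considered first. *Arntl* (chromosome 7, 113207465 to 113314126, plus strand of GRCm38), the partner without which the loop stops, was at 15.2, 14.7 and 13.9 CPM in WT and at 12.6, 13.1 and 12.1 CPM in KO. All 3 KO libraries lay below the lowest WT library. The log2 fold change of *Arntl* was -0.22 (SE 0.0880, 95% interval -0.40 to -0.04), which missed the threshold (edgeR adjusted p = 0.0604). The call for *Arntl* turned on the setting, since without WT c the log2 fold change was -0.25 with an edgeR adjusted p of 0.0388.

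*Clock* (chromosome 5, 76209868 to 76304792, minus strand), the histone acetyltransferase partner of ARNTL, was at 116, 116 and 106 CPM in WT and at 103, 111 and 113 CPM in KO. The groups overlapped, because WT c was lower than 2 of the KO libraries. The log2 fold change of *Clock* was -0.05 (SE 0.0448), with a 95% interval from -0.14 to 0.04 (edgeR adjusted p = 0.438).

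The PER proteins are the rate-setting repressors of the loop. *Per1* (chromosome 11, 69095217 to 69109960, plus strand) was at 243, 243 and 266 CPM in WT and at 97.0, 97.0 and 95.5 CPM in KO. The nearest WT and KO libraries differed by a factor of 2.50, and the KO libraries lay closer together than the WT libraries. The log2 fold change of *Per1* was -1.38 (SE 0.0392, 95% interval -1.46 to -1.30, edgeR adjusted p = 1.63e-20), and 75 of 13804 genes (0.543%) had a lower one. These levels rest on 4049 to 4768 counts per WT library and 1536 to 1831 per KO library. The coefficient of variation of the KO libraries was 0.914%, narrower than the 2.42% that counting alone gives.

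*Per2* (chromosome 1, 91415982 to 91459324, minus strand), which like *Per1* is both a clock component and inducible, was at 49.3, 53.8 and 48.1 CPM in WT and at 43.5, 43.6 and 41.4 CPM in KO. The groups did not overlap, and the nearest libraries differed by a factor of 1.10. *Per2* fell by 0.24 on the log2 scale (SE 0.0562, edgeR adjusted p = 0.0019), to 0.850 of its WT level.

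*Per3* (chromosome 4, 151003652 to 151044665, minus strand), the family member that the loop can do without, was at 27.2, 27.4 and 23.7 CPM in WT and at 25.3, 28.4 and 28.1 CPM in KO. The groups overlapped, with the lowest value in WT c and the highest in KO b. The log2 fold change of *Per3* was 0.06 (95% interval -0.09 to 0.21, edgeR adjusted p = 0.596), and without WT c it was -0.0057. The 3 *Per* genes thus gave log2 fold changes of -1.38, -0.24 and 0.06 in the same libraries.

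The sequences upstream of the repressor genes were read because E-boxes and cAMP response elements are the inputs by which these genes are known to be switched. RefSeq windows of 250 bases before an annotated start (GRCm38.p6) were at hand for 9 of the 10 genes, and *Per2* had none. Each is written from 5′ to 3′ on the strand of the gene, with matches to the E-box CACGTG, the D-box TTATGTAA or TTACGTAA, the short cAMP response element TGACG and the CCAAT box CCAAT in capitals, on either strand, so that ATTGG is CCAAT and CGTCA is TGACG read on the other strand. The windows of *Per1* begin 2 different transcripts, chr11:69098699-69098948 and chr11:69099902-69100151 on the plus strand, and both lie within the annotated gene. Of the first window 1 base lies in an annotated exon of *Per1*, and the second lies in no annotated exon.
Per1, first window: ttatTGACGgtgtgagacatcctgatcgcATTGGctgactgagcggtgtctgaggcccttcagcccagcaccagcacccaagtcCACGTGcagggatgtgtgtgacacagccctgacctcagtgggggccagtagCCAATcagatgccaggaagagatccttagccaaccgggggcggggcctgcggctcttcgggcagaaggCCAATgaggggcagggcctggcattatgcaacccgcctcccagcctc
Per1, second window: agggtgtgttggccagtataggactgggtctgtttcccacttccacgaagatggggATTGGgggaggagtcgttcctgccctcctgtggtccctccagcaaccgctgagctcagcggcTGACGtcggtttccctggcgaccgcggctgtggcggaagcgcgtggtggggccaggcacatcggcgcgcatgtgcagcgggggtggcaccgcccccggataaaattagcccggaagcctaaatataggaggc
The windows of the remaining repressors with one were chr4:151044666-151044915 for *Per3*, chr10:85185055-85185304 for *Cry1* and chr2:92434070-92434319 for *Cry2*, all on the minus strand.
Per3: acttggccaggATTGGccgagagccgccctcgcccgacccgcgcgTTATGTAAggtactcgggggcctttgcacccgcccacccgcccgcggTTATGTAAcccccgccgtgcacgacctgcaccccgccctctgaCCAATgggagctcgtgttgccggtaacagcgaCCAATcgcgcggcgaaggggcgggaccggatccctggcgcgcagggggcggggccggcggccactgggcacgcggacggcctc
Cry1: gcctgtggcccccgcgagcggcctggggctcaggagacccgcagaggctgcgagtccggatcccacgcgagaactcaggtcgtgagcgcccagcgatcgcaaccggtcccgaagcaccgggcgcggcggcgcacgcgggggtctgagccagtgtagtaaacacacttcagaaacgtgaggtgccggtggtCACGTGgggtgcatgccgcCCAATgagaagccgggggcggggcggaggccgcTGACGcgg
Cry2: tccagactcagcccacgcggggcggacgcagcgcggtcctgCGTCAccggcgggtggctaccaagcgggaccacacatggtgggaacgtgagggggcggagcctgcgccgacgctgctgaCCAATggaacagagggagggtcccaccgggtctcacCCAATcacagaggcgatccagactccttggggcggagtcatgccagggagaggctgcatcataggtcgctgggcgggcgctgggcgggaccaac

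In these windows, an E-box stood 161 bases before the first *Per1* start and 55 bases before the *Cry1* start, and the other 7 genes with a window held none. Of 32851 windows of the same length, 6.02% held CACGTG. The short element TGACG stood in both *Per1* windows and in those of *Cry1* and *Cry2*, so in 3 of 9 genes, against 17.8% of all windows. The full element TGACGTCA, which contains the short one, was in none of the 9 genes and in 1.55% of all windows. *Per3* held the D-box TTATGTAA in 2 copies, 198 and 151 bases before its start, and no other clock gene held one, against 0.931% of all windows. The ROR element, an AT-rich stretch before a nuclear receptor site, was in none of the 9 genes and in 0.350% of all windows, and the CArG box bound by SRF was likewise in none and in 1.47%. CCAAT boxes, the sequence bound by NF-Y, were in 7 of the 9 genes and 33.8% of windows, and the GC box GGGCGG, left in lower case above, in 8 of the 9 and 32.7%. Genes that were lower and genes that were not called both held CCAAT boxes: *Per1*, *Cry2* and *Nr1d2* among the former, and *Arntl*, *Per3*, *Cry1* and *Dbp* among the latter. The 9 genes had 13 windows, and a gene was counted if any of its windows matched, whereas the shares are of single windows. The 2 are thus not in the same unit. A match is a string of letters and not a bound site. An absence holds only for these letters within these windows, which stop before an annotated start. Elements with other letters, or beyond the windows, were not sought, so no gene, *Arntl* included, is shown to lack the ROR element.

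The CRY proteins, relatives of photolyases, are the strongest repressors of the ARNTL and CLOCK pair. *Cry2* (chromosome 2, 92403646 to 92434043, minus strand) was at 33.7, 34.5 and 34.3 CPM in WT and at 26.0, 23.8 and 23.3 CPM in KO. Every KO library lay below every WT library, and the nearest libraries differed by a factor of 1.30. *Cry2* fell by 0.49 on the log2 scale (SE 0.0645, 95% interval -0.62 to -0.35, edgeR adjusted p = 1.68e-06). It shares 295 exon bases (4.67% of its exons) with the opposite-strand transcript *D930015M05Rik*, which had 2.94 CPM in WT against 1.63 CPM in KO (log2 fold change -0.85, edgeR adjusted p = 0.0029). Whether the counting used strand is not given in the sources used here, so reads of the shared stretch cannot be assigned to either gene with certainty.

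*Cry1* (chromosome 10, 85131700 to 85185064, minus strand) was at 22.8, 22.8 and 22.7 CPM in WT and at 21.0, 21.8 and 20.0 CPM in KO. The groups did not overlap, though by a small margin, and the spread of the WT libraries, with a coefficient of variation of 0.376%, was narrower than the 5.05% that counting alone gives at this depth. The log2 fold change of *Cry1* was -0.12 (SE 0.0710, 95% interval -0.27 to 0.02), which did not pass the test (edgeR adjusted p = 0.200).

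Both REV-ERB receptors were lower in KO. *Nr1d1* (chromosome 11, 98767932 to 98775333, minus strand), the heme-binding repressor of *Arntl*, was at 40.7, 38.7 and 44.2 CPM in WT and at 34.7, 35.7 and 34.8 CPM in KO. The groups were apart, by a factor of 1.09 between the nearest libraries. *Nr1d1* fell by 0.23 on the log2 scale (SE 0.0601, edgeR adjusted p = 0.0046). Its 3′ end overlaps that of the thyroid receptor gene *Thra* on the other strand over 263 exon bases (8.55%), and *Thra* had a log2 fold change of -0.05 with overlapping groups.

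*Nr1d2* (chromosome 14, 18204054 to 18239127, minus strand), the second receptor of the pair, was at 52.8, 49.4 and 47.2 CPM in WT and at 44.1, 44.1 and 40.0 CPM in KO. No KO library reached a WT library, and the nearest libraries differed by a factor of 1.07. *Nr1d2* fell by 0.22 on the log2 scale (SE 0.0578, edgeR adjusted p = 0.0042). Of its 50-base words, 5.13% also occur in the annotated gene *AC170187.1*, and those reads may have been split or dropped in counting.

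*Dbp* (chromosome 7, 45705088 to 45710203, plus strand), an output factor with a wide daily swing in adult tissues, was at 6.83, 5.72 and 6.37 CPM in WT and at 5.25, 6.25 and 7.08 CPM in KO. The lowest and the highest of the 6 values were both KO libraries. The log2 fold change of *Dbp* was -0.02, with an interval from -0.31 to 0.26 (edgeR adjusted p = 0.919), and its sign changed with the library left out. *Dbp* was counted from 97 to 132 reads per library and shares 539 exon bases (18.0%) with *Sphk2* on the other strand, whose log2 fold change was 0.07, so a change smaller than this interval was not detectable at this depth.

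Levels were compared between genes as RPKM, CPM divided by the exon length in kilobases, with lengths from GENCODE vM21. The exons of all annotated transcripts of a gene were merged for this length, so the order below depends on that choice. In CPM, for instance, *Arntl* in WT (14.6) lay above *Dbp* (6.31). In WT hearts *Per1* was the most abundant of the 10, at 44.5 ± 2.34 RPKM (SD, n = 3), and *Nr1d1* followed at 13.4 ± 0.902 RPKM. *Nr1d2*, *Per2* and *Clock* came next at 9.21, 8.60 and 8.21 RPKM, and neighbours in this order overlapped between libraries. *Cry1* at 6.82, *Cry2* at 5.41 and *Per3* at 2.71 RPKM each stood apart from their neighbours. *Dbp* and *Arntl* were lowest, at 2.11 ± 0.188 and 1.95 ± 0.0876 RPKM, and overlapped. In KO hearts *Per1* was still the highest at 17.1 ± 0.157 RPKM and *Nr1d1* second at 11.4 ± 0.178 RPKM. *Clock* at 7.95 RPKM came before *Nr1d2* at 7.90 and *Per2* at 7.31 RPKM, and these neighbours again overlapped. The lower end kept its order, from *Cry1* at 6.27 through *Cry2* at 3.86, *Per3* at 2.84 and *Dbp* at 2.07 to *Arntl* at 1.68 RPKM.

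Ratios between related genes were taken within each library, where the scaling of the library cancels. The *Per1* to *Per2* ratio of raw counts was 4.93, 4.52 and 5.53 in WT and 2.23, 2.23 and 2.31 in KO, a shift of -1.14 on the log2 scale. The *Per1* to *Per3* ratio moved by -1.44 and the *Per2* to *Per3* ratio by -0.30, both without overlap. The *Cry1* to *Cry2* ratio was 0.677, 0.660 and 0.661 in WT and 0.810, 0.915 and 0.857 in KO, a shift of 0.37 toward *Cry1*. The *Arntl* to *Clock* ratio moved by -0.17 without overlap. For these 5 ratios the two-sided exact permutation test gave p = 0.1, the smallest value that 3 against 3 libraries allow, and 0.12 after adjustment over the 6 ratios, so the design could not take them past 0.05. The *Nr1d1* to *Nr1d2* ratio was 0.772, 0.783 and 0.936 in WT and 0.786, 0.809 and 0.870 in KO. These values overlapped, and the shift was -0.01 (exact permutation p = 1.0).

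**Figure D2:**
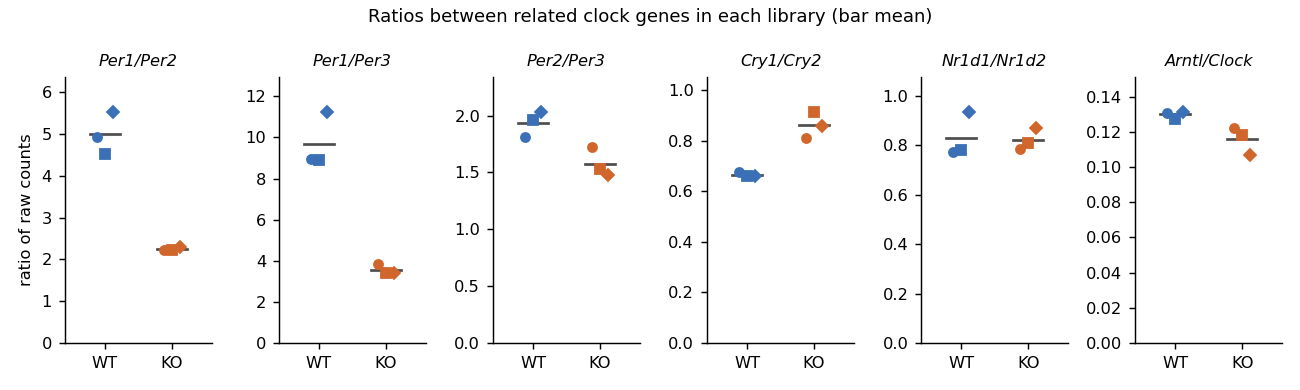
Ratio of raw counts between related clock genes in each WT (blue) and KO (orange) library, with the axis from 0 in each panel and bars at the means. *Per1* lost ground to both *Per2* and *Per3* (4.52 to 5.53 against 2.23 to 2.31 for *Per1* to *Per2*), whereas the *Nr1d1* to *Nr1d2* ratio overlapped between genotypes.

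In adult tissues *Arntl* peaks about opposite to the *Nr1d* and *Per* genes, so the distance of each gene from *Arntl* moves with the phase at which tissue is taken. This distance was computed as the log2 CPM of a gene minus that of *Arntl*, a description chosen after the values were seen and not tested. *Nr1d1* minus *Arntl* was 1.42, 1.39 and 1.67 in WT and 1.46, 1.44 and 1.52 in KO. *Nr1d2* minus *Arntl* averaged 1.77 in WT and 1.76 in KO, and *Per2* minus *Arntl* 1.78 and 1.76. These 3 distances overlapped between the genotypes and the KO mean minus the WT mean was -0.0167, -0.0062 and -0.0186. *Per3* minus *Arntl* was larger in KO without overlap, with a mean of 1.11 against 0.83. *Dbp* minus *Arntl* averaged -1.04 in KO against -1.22 in WT, with overlapping libraries. *Per1* minus *Arntl* moved the other way, from 4.10 in WT to 2.94 in KO. The part of the hour of collection in any of these values was not tested.

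Of 13 other transcription factors and regulators of the clock, 2 were lower, 5 were higher and 6 were not called, with a median log2 fold change of 0.09. *Nfil3* (E4BP4), the repressor that competes with DBP for the D-box, averaged 52.4 ± 2.51 CPM in WT and 27.7 ± 1.72 CPM in KO (SD, n = 3 per genotype). It fell by 0.93 on the log2 scale (SE 0.0610, edgeR adjusted p = 3.33e-12) without overlap, while *Dbp* itself did not pass the test. *Bhlhe40* (DEC1), an E-box-binding repressor that opposes ARNTL and CLOCK, was at 49.2, 45.7 and 43.8 CPM in WT and at 69.0, 70.4 and 73.5 CPM in KO. *Bhlhe40* rose by a log2 fold change of 0.62 (SE 0.0524, edgeR adjusted p = 6.22e-10) with all KO libraries above all WT libraries. Its relative *Bhlhe41* (DEC2) rose by a log2 fold change of 0.41, from 20.1 ± 1.35 to 26.8 ± 1.14 CPM (SD, n = 3 per genotype). *Ciart* (CHRONO), another repressor of the pair, rose from 3.61 ± 0.206 to 5.43 ± 0.441 CPM, a log2 fold change of 0.58 (edgeR adjusted p = 0.0045). So 3 repressors outside the *Per* and *Cry* families were higher in the same KO libraries in which *Per1*, *Per2* and *Cry2* were lower. This was not general, since the repressor genes *Nfil3*, *Nr1d1* and *Nr1d2* were lower as well and the CLOCK inhibitor gene *Cipc* was not called.

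Among the other clock factors, CACGTG stood in windows of *Ciart* and *Bhlhe41*, which rose, and of *Tef* and *Cipc*, which were not called. Its share over all windows was 6.02%. The upstream window of *Ciart*, shown because it held the E-box in 3 copies, ran over chr3:95882229-95882478 on the minus strand, with 23 of its bases in the first exon.
Ciart: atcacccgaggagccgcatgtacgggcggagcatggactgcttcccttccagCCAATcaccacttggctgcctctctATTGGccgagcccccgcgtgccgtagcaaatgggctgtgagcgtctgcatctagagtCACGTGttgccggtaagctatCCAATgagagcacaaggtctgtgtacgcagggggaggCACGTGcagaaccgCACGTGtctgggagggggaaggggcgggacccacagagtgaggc

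Among the ROR receptors, *Rorb* was counted from 26 to 67 reads per library and had a log2 fold change of -0.65 (edgeR adjusted p = 0.0354), a call that was lost without WT a (-0.40), KO a (-0.55) or KO b (-0.56). *Rora*, another receptor of the family, had 38.1 CPM in WT against 37.6 CPM in KO, with overlapping groups. *Timeless*, better known for replication fork protection, had a log2 fold change of 0.21 (edgeR adjusted p = 0.0354), and the call was lost without WT a (0.14), KO a (0.23) or KO b (0.16), under DESeq2 (0.22) and with WT a and WT b summed (0.20). The CLOCK paralogue *Npas2*, the ARNTL paralogue *Arntl2*, the PAR bZIP factors *Tef* and *Hlf* and the CLOCK inhibitor *Cipc* were not called, with log2 fold changes of 0.08, 0.33, 0.09, -0.09 and 0.06.

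**Figure D3:**
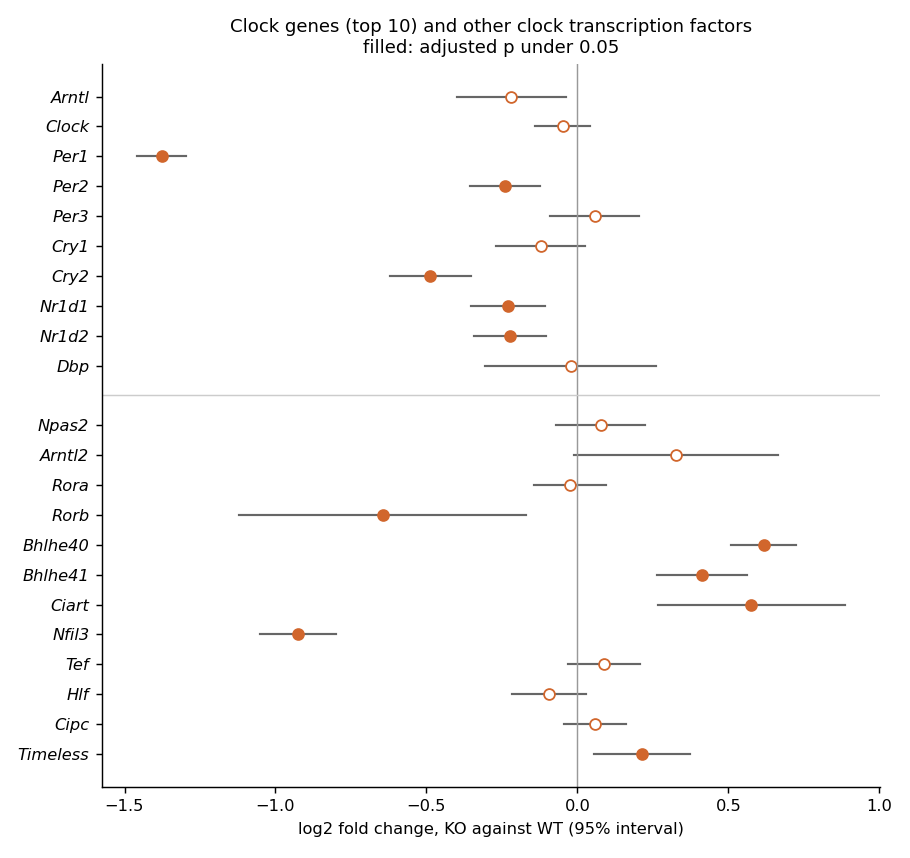
Log2 fold change of KO against WT with its 95% interval for the 10 clock genes (top) and the other clock transcription factors named in the text (bottom); filled points had an adjusted p under 0.05. *Per1* at -1.38 and *Nfil3* at -0.93 lie farthest to the left, and *Bhlhe40* at 0.62 farthest to the right.

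Of 18 kinases, ubiquitin ligases and cofactors that act on the clock proteins, 6 were lower and 0 higher, with a median log2 fold change of -0.03. All genes tested gave 15.7% lower and 14.6% higher. Without TMM scaling 4 were lower and 3 higher. The PER kinase gene *Csnk1e* fell by 0.26 and the NAD-dependent deacetylase gene *Sirt1* by 0.26 on the log2 scale. The casein kinase 2 subunit gene *Csnk2b* had a log2 fold change of -0.17, which no longer passed without KO b or without TMM scaling (-0.13 in both). *Csnk1d*, the closest relative of *Csnk1e*, was not called, at 0.09.

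Of 20 genes described as outputs of the clock, in the heart or elsewhere, 12 were lower and 0 higher, with a median log2 fold change of -0.17. For all genes tested these shares were 15.7% and 14.6%. *Klf9*, a zinc finger repressor, fell from 51.3 to 16.2 CPM (log2 fold change -1.66), and *Ccrn4l*, the deadenylase-like gene Nocturnin, fell from 55.9 to 29.7 CPM (-0.91). *Cdkn1a*, the cell cycle inhibitor p21, fell by 0.57 on the log2 scale. The PAR bZIP genes *Tef* and *Hlf* and the cardiac ion channel regulator *Klf15*, which are used as clock outputs in adult heart, were not called, and *Klf15* was at 0.09. *Klf9*, *Cdkn1a*, *Klf15*, *Tsc22d3* and *Pdk4* also stand in the list of glucocorticoid-responsive genes below, so the lists are not independent. Other genes shared between lists were *Tef* and *Hlf* (other clock factors and outputs) and *Usp2* (modifiers and outputs). *Sirt1* is shared by the modifiers and the AMPK, NAD and heme list below. *Alas1* and *Nampt* are shared by the outputs and that list, and *Dusp1* by the immediate early and glucocorticoid-responsive genes.

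*Per1* is itself inducible, and lists of genes inducible by such signals were set beside it. These lists were chosen with earlier results of these data known, and the cause of the lower *Per1* level was not tested. Of 24 immediate early genes that answer to CREB or SRF, 23 were in the table and all 23 were lower in KO, 22 without overlap, with a median log2 fold change of -1.32. Over all genes tested, 15.7% were called lower and 21.4% were separated with KO lower. Their summed level was 1582 to 1694 CPM in WT and 583 to 584 CPM in KO. *Fos* was at 49.2, 49.1 and 50.5 CPM in WT and at 2.12, 4.04 and 3.11 CPM in KO (log2 fold change -4.02). *Nr4a3*, an orphan nuclear receptor gene and CREB target, had a log2 fold change of -3.29 and *Atf3*, a stress-induced bZIP gene, one of -3.12. *Per1*, at -1.38, lay near the median of this list, and *Per2*, at -0.24, lay above all 23 of its genes. The smallest decrease in the list was that of *Crem*, at -0.40, the gene whose groups overlapped.

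Of 16 glucocorticoid-responsive genes, 10 were lower and 1 was higher, with a median of -0.32. Among all genes tested, 15.7% were lower and 14.6% higher. *Klf9* at -1.66, *Zbtb16* at -1.62 and *Nfkbia* at -0.97 fell most, and the lipase inhibitor gene *Angptl4* rose by a log2 fold change of 0.96. The receptor gene *Nr3c1* was at 110 CPM in both genotypes, and the widely used reporters *Fkbp5* and *Tsc22d3* fell by 0.30 and 0.17. For *Tsc22d3* the WT and KO libraries overlapped.

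Of 14 genes that link the clock to energy state, through AMPK, NAD and heme, 3 were lower and 4 higher, with a median of -0.04. Calls over all genes tested came to 15.7% lower and 14.6% higher. *Ppargc1a*, a coactivator of ROR receptors on *Arntl*, fell by 0.26, and *Alas1*, the first enzyme of the synthesis of heme, the ligand of the REV-ERB receptors, fell by 0.18. *Ppara*, a nuclear receptor gene driven by the clock in adult liver, rose by 0.47, and the AMPK subunit gene *Prkag1* by 0.26. The AMPK subunit gene *Prkaa1* had a log2 fold change of 0.19 and was no longer called without WT c (0.13), KO a (0.17) or KO b (0.18). *Nampt*, the NAD salvage enzyme gene with E-boxes in its promoter, had a log2 fold change of -0.12 and was not called.

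**Figure D4:**
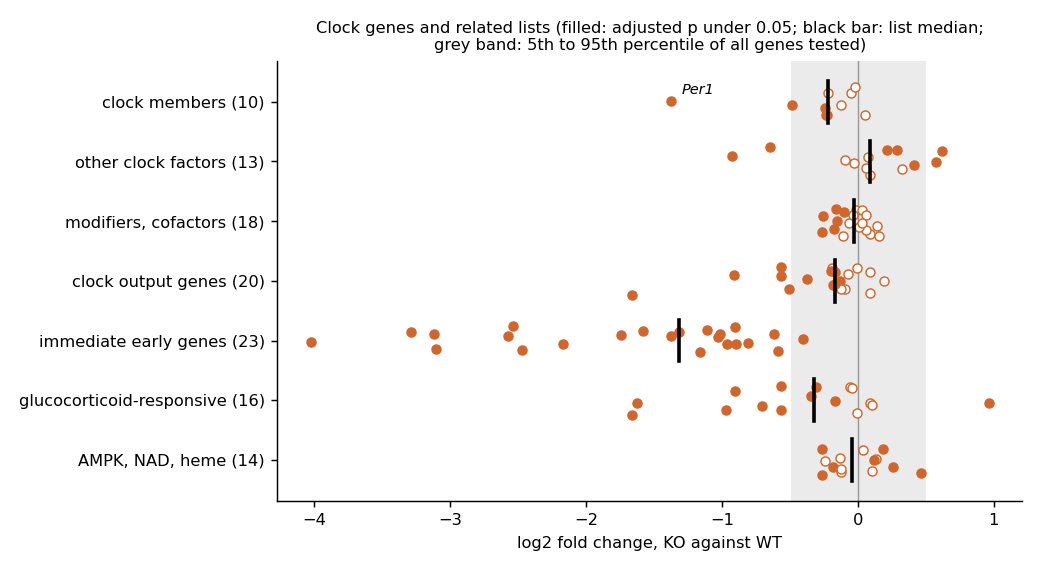
Log2 fold change of KO against WT for each gene of the clock set and of 6 related lists, with the number of genes tested in brackets; filled points had an adjusted p under 0.05, black bars are list medians and the grey band spans the 5th to 95th percentile of all genes tested (-0.48 to 0.49). Most clock genes lie inside the band and *Per1* lies at -1.38, near the median of the immediate early genes (-1.32). The lists were chosen with earlier results of these data known.

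The 5 clock genes called lower kept their call and direction under all 17 alternative fits, in which libraries were left out in turn or the scaling, filter or test was changed. Over these fits the log2 fold change ranged from -1.40 to -1.33 for *Per1*, from -0.54 to -0.44 for *Cry2*, from -0.27 to -0.19 for *Per2*, from -0.28 to -0.18 for *Nr1d1* and from -0.26 to -0.18 for *Nr1d2*. The number of clock genes called lower was 5 or 6 in each fit, the sixth being *Arntl*, and the number called higher was 0. Without TMM scaling, when 1527 genes were called lower and 2911 higher in place of 2168 and 2011, the lower calls made up 34.4% of all calls against 51.9%, and the clock genes called were unchanged.

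**Figure D5:**
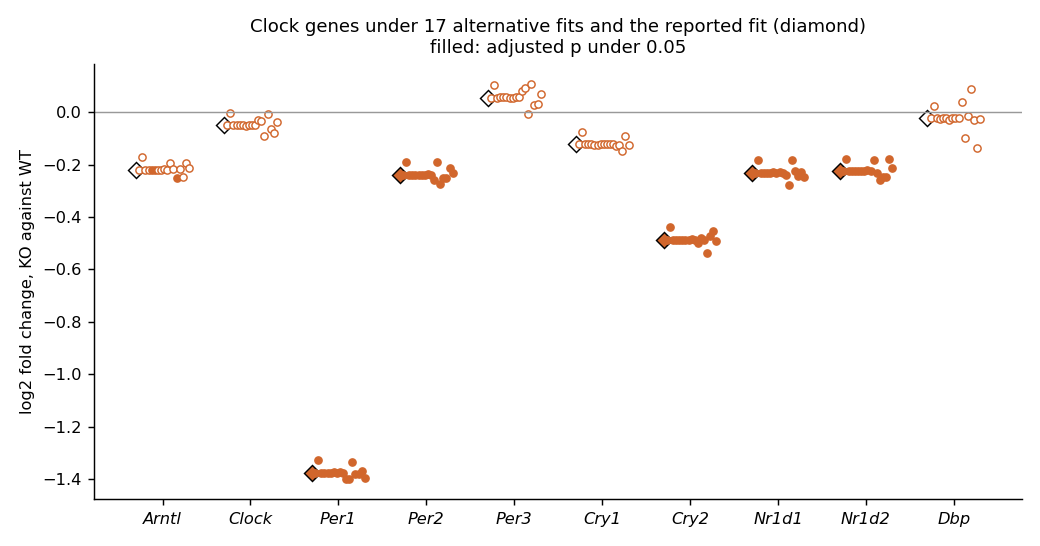
Log2 fold change of each clock gene in the reported fit (diamond) and 17 alternative fits (circles); filled symbols had an adjusted p under 0.05. *Per1* stays near -1.38 and *Cry2* near -0.49, *Arntl* is filled in 3 alternatives only, and *Per3* and *Dbp* lie on both sides of 0.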

How the data were processed

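Ventricular RNA from 3 WT and 3 KO embryos was depleted of ribosomal RNA and sequenced in paired ends. The authors trimmed with cutadapt 1.18, aligned with HISAT2 to mm10 and ran StringTie, by the methods and the submitters' processing notes; the counting program and its use of strand are not given in the sources used here. The deposited table holds, for each gene symbol, raw read counts as the authors made them. Their deposited log2 fold changes, log2 CPM, p-values and q-values were not used.

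Columns name the genotype but no replicate, so letters (a, b, c) name the libraries of a genotype by column. In R 4.3.3, edgeR 4.0.16 kept 13804 of 13809 genes (filterByExpr), scaled by TMM and applied the quasi-likelihood test with genotype as the term, with Benjamini-Hochberg adjustment over those genes. At these depths 3 counts equal 0.153 to 0.197 CPM on the TMM scale, which covers counting error only. Ratios were taken from raw counts on the log scale, with 0.5 added counts as an alternative only. They were compared by exact permutation tests, with Benjamini-Hochberg adjustment in scipy 1.17.1. Alternatives included DESeq2 1.42.0 and limma 3.58.1 (voom). The quasi-likelihood, likelihood ratio and exact tests, DESeq2 and voom were tested on simulated data.

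The 10 genes and all lists were chosen with earlier results of these data known. Named are the 10 genes, the other clock factors (some list genes are counted but not reported here), the label-check genes, and per list up to 3 called genes per direction with the largest change and no overlap. Outside that rule, and chosen after their values were seen, are *Csnk1d*, *Klf15*, *Tsc22d3*, *Pdk4*, *Fkbp5*, *Nr3c1*, *Crem*, *Nampt* and the genes that overlap a clock gene. *Usp2* and *Dusp1* are named only as genes shared between lists. Motifs were sought in 250 bases before RefSeq starts.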

Additional observations from a re-analysis of the deposited data

How the results depend on the processing

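No paired analysis was possible because column names of the table give genotype without a replicate number. The alternatives were RLE factors, no TMM, TMM without *Rn45s*, DESeq2, the likelihood ratio and exact tests of edgeR, voom, no filter, at least 10 counts in every library, X and Y genes left out, each library left out, and WT a and WT b summed. *Arntl* passed under the likelihood ratio test (-0.22, adjusted p = 0.0456) and the exact test of edgeR (-0.22, adjusted p = 0.0383). With each library left out its log2 fold change ranged from -0.25 to -0.19, that of *Per3* from -0.0057 to 0.11 and that of *Dbp* from -0.14 to 0.089. Without TMM, *Dbp* was at 0.0245 and *Rora* at 0.0228. *Rora* was at 0.0014 without WT a and *Npas2* ranged from -0.0027 (without WT b) to 0.12 with a library left out. With each library left out, the log2 shift of the *Nr1d1* to *Nr1d2* ratio ranged from -0.061 to 0.079. The causes were not tested. DESeq2 called 1639 genes lower and 1362 higher. Counts over the related lists under each fit were added after seeing the data: lower calls ranged from 22 to 23 in immediate early genes, 9 to 14 in clock outputs, 9 to 10 in glucocorticoid-responsive genes, 4 to 7 in modifiers, 1 to 2 in other clock factors and 3 to 5 in the AMPK, NAD and heme list. Higher calls ranged over 0, 0 to 1, 1 to 2, 0 to 3, 4 to 5 and 2 to 5 in the same order. *Rorb* also missed the threshold under DESeq2 and without TMM, and *Arntl2* passed it without KO a (0.47). Depth limits *Rorb*, with 26 to 67 counts per library, and *Dbp*, the member with the fewest, with 97 to 132.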
